A study of Mus musculus with 24 samples.

Results

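The comparison covered differentiating C2C12 cells, a line of mouse skeletal muscle myoblasts, on 6 of the 24 arrays of the series. They were chosen by their titles. The 3 arrays labelled IFT88KD came from cells given siRNA against Ift88 and the 3 labelled control from cells given a negative control siRNA, and all 6 cultures were taken from adherent cells near confluence and kept for 48 h in medium with 2% horse serum. The other 18 arrays held the same siRNA pair, 3 arrays each, in proliferating cells (adherent, 20% fetal bovine serum), in quiescent cells held in suspension and in cells replated for 2 h after suspension. Medium of all 18 is listed with 20% serum. Total RNA, 8 ug per array, was hybridised to Affymetrix mouse expression arrays. Arrays of 1 replicate number were treated as a pair. The p-values rest on the spread of within-pair differences pooled over the 4 culture states, not on the 6 arrays alone. The labels do not say that the replicates were separate cultures, so p-values measure only the spread between these samples, which may be technical. The number of arrays limits the precision.

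C2C12 myoblasts leave the cell cycle in low serum, express the myogenic factors MyoD and myogenin, and fuse into multinucleated myotubes that build sarcomeres and switch on muscle isoforms of metabolic enzymes. The primary cilium is a microtubule-based sensory organelle that is built by intraflagellar transport, the movement of cargo along the axoneme by particles of which IFT88 is a core subunit. Cilia carry Hedgehog signalling in vertebrate cells, and they are taken apart when a cell re-enters the cycle. In a bulk sample, fewer cells of a type and less RNA per cell cannot be told apart.

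The targeted gene did not separate the groups in this state. Ift88 was 3.88, 3.51 and 4.0 log2 on the IFT88KD arrays and 3.77, 3.71 and 3.93 log2 on the control arrays (replicates 1 to 3), so the groups overlapped. Its change was -0.0088 log2 (SE 0.12, limma adjusted p = 0.989), with a 95% interval from -0.27 to 0.25 and within-pair differences of 0.11, -0.20 and 0.07. In the same model Ift88 fell by 0.52 in proliferating cells (adjusted p = 0.0429). It fell by 0.69 in suspended, quiescent cells (adjusted p = 0.0019) and by 0.59 after replating (adjusted p = 0.0080). The effect in differentiating cells differed from that in quiescent cells by 0.68 (adjusted p = 0.0357). The differences from proliferating cells (0.51, adjusted p = 0.277) and from replated cells (0.58, adjusted p = 0.0948) did not pass. Because the measured mRNA of the target goes against the label here, every direction below is that of the arrays labelled IFT88KD against the control arrays. The siRNA's effect on the IFT88 protein was not measured on these arrays.

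**Figure D1:**
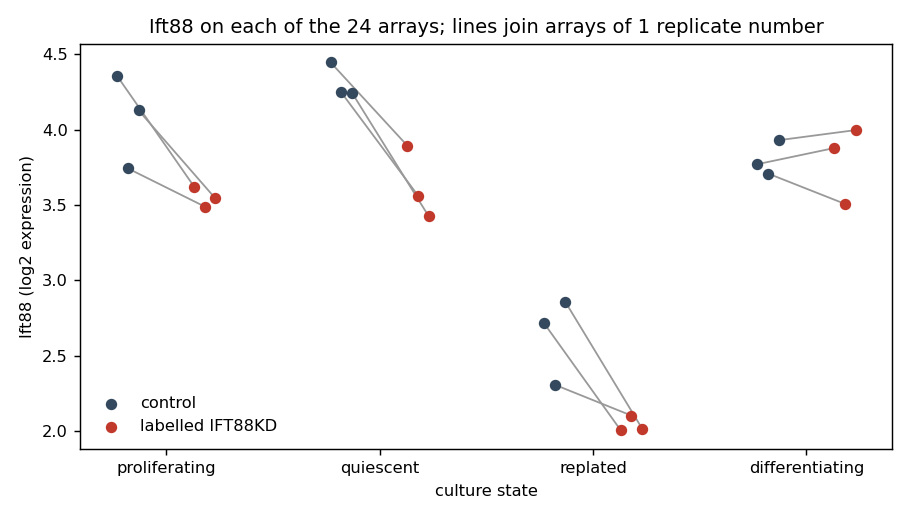
Ift88 log2 expression on each of the 24 arrays, by culture state, with lines joining arrays of 1 replicate number. The IFT88KD arrays lie below their control partners in proliferating, quiescent and replated cells, and the differentiating pairs differ by 0.11, -0.20 and 0.07.

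The differentiating cells carried a muscle programme in both groups. The mean of 12 markers of differentiating muscle lay between 10.34 and 10.53 log2 on the control arrays and between 10.03 and 10.36 on the IFT88KD arrays, against 4.14 to 6.87 on the control proliferating arrays. Of 8597 genes tested, 4708 (54.8%) differed between control differentiating and control proliferating cells, 24.5% higher and 30.3% lower. Median signal was 3.68 to 3.78 log2 on the 6 arrays, and any pair of them correlated at 0.989 or above. Of 11 macrophage markers, 3 lay above the filter percentile on any of the 6 arrays, with means of 1.76 to 1.84 log2 on the IFT88KD and 1.80 to 1.84 on the control arrays. Cd68, Adgre1, Csf1r, Lyz2 and Ptprc lay under it on all 6. The same count was 4 of 8 for fibroblast markers (2.9 to 3.08 and 2.73 to 3.23 log2), 1 of 6 for adipocyte markers (1.53 to 1.76 and 1.48 to 1.62), 0 of 7 for endothelial markers (1.09 to 1.24 and 1.25 to 1.39), 1 of 6 for bone and cartilage markers (1.86 to 2.08 and 1.87 to 2.18) and 1 of 6 for epithelial markers (1.45 to 1.58 and 1.55 to 1.56).

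Between the arrays labelled IFT88KD and the controls, 89 of 8597 genes (1.04%) passed a limma adjusted p of 0.05, 44 higher (0.512%) and 45 lower (0.523%). The changes were small: 2 genes rose and 1 fell by 1 log2 or more, and the quartiles of all genes lay at -0.07 and 0.09. All 89 moved the same way in all 3 pairs, as did 40.2% of all genes tested. The 3 IFT88KD arrays did not overlap the 3 control arrays for 64 of the 89, against 10.8% of all genes. The 89 were selected on these same differences, so both counts follow largely from the selection and are no separate support. The count depended on the pairs. It was 12 (0.14%; 7 higher, 5 lower) in the model without pairs, and 20, 12 and 3 without pair 1, 2 and 3. The 3 genes that passed without pair 3 were Bex1, Tgm2 and Sstr2, and all 3 genes passed without each pair in turn. Sstr2, a somatostatin receptor gene, lay under the filter percentile on all 3 control arrays and on 2 of the 3 IFT88KD arrays. The size of its change is therefore uncertain. Of the 43 genes past the threshold that are named by rule, 16, 10 and 2 passed without pair 1, 2 and 3. With each array centred on its median the split was 33 higher and 52 lower. Of all 8597 genes, 1079 lay below an unadjusted p of 0.05 in limma, 569 higher and 510 lower. Without pairs 405 did. The list counts below that value are to be read against these counts. Of the 43 genes, 15 had other probe sets, 28 in all, of which 27 had the same sign and 12 a change smaller by over 1.5 times.

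Bex1 had the largest fall. Bex1, an X-linked gene for a small adaptor protein that is high in differentiating muscle, was 4.82, 4.12 and 4.12 log2 on the IFT88KD arrays and 6.29, 5.58 and 5.82 on the control arrays. Every IFT88KD array lay below every control array. The fall was 1.54 (SE 0.16, limma adjusted p = 0.0011), a 2.91-fold lower signal, and it also passed without pairs (adjusted p = 0.01). Tgm2, which encodes tissue transglutaminase, a crosslinking enzyme, was 6.42, 6.07 and 5.85 log2 against 7.31, 7.39 and 6.45 in the controls. It fell by 0.93 (SE 0.11, adjusted p = 0.0024). Its 5 other probe sets changed by -1.03, -0.93, -0.91, -0.63 and -0.16, the last of them under the filter percentile on all 6 arrays. Without pairs the adjusted p of Tgm2 was 0.148.

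Genes of muscle energy supply had the highest share of calls of the 22 lists. They include the oxygen store myoglobin, glycogen phosphorylase, creatine kinase and the heart and muscle isoforms of cytochrome c oxidase subunits. Of 17 measured members, 5 fell, 0 rose and 12 did not pass (limma; 29.4% called, against 1.04% of all genes), and 15 of the 17 were lower in all 3 pairs, against 18.9% of all genes. The median change was -0.38, against 0.01 over all genes, with pair medians of -0.29, -0.32 and -0.51.

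Mb, the myoglobin gene, was 9.25, 8.79 and 8.38 log2 on the IFT88KD arrays and 9.85, 9.25 and 9.16 on the control arrays. Each IFT88KD array lay below its own partner, although the groups overlapped. Mb fell by 0.61 (SE 0.13, limma adjusted p = 0.0434). Its other probe set, under the filter percentile on all 6 arrays, changed by -0.24. Cox8b, a muscle isoform of a cytochrome c oxidase subunit, was 6.85, 6.85 and 6.48 log2 against 7.23, 7.46 and 7.14. It fell by 0.55 (SE 0.081, adjusted p = 0.0122), with no overlap. Pygm, the muscle glycogen phosphorylase gene, was 5.49, 5.61 and 5.12 log2 against 5.88, 5.92 and 6.02 and fell by 0.54 (SE 0.11, adjusted p = 0.0282). Pgam2, the muscle phosphoglycerate mutase of glycolysis, was 8.19, 7.84 and 7.39 log2 against 8.46, 8.27 and 8.03 and fell by 0.45 (SE 0.094, adjusted p = 0.0401). Cox7a1, the second cytochrome c oxidase subunit of the group, fell by 0.69 (SE 0.15, adjusted p = 0.0429), but it lay under the filter percentile on all 6 arrays, so its size is uncertain. Ckm, the muscle creatine kinase gene, had a change of -0.53 (adjusted p = 0.162), Ckb, the brain-type creatine kinase gene, -0.51 (adjusted p = 0.0796) and Slc2a4, the insulin-responsive glucose transporter gene, -0.44 (adjusted p = 0.0740). The ubiquitous Ldha changed by -0.03. The direction of the list held in each pair, but the calls did not: without pairs 0 of the 17 passed in limma (7 below an unadjusted p of 0.05), and 1, 0 and 0 passed without pair 1, 2 and 3. The general respiratory chain list, whose subunits all cells use, had 0 of 41 members past the threshold in limma, 0 below an unadjusted p of 0.05 and a median of 0.01.

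**Figure D2:**
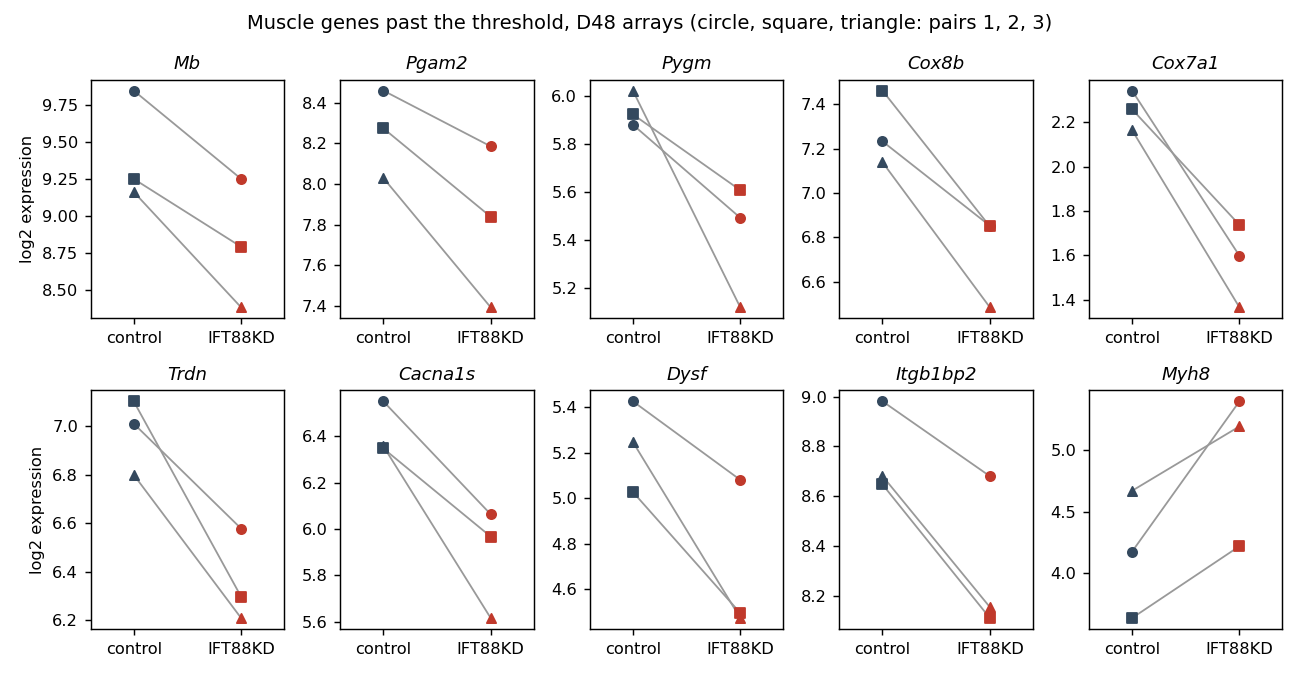
Log2 expression of the 10 muscle-list genes past the threshold on the 6 differentiating arrays, with lines joining the arrays of a pair. In 9 panels every IFT88KD array lies below its partner, and Myh8 is the 1 gene with the opposite direction.

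Sarcomere genes had a change under 0 in 40 of 44 measured members, against 4022 of all 8597 genes, and none of the falls passed. The sarcomere is the contractile unit built from actin, myosin and the Z-disc. In limma 0 fell, 1 rose and 43 did not pass (2.27% called, against 1.04% of all genes), with 16 lower and 2 higher below an unadjusted p of 0.05. Without pairs 0 passed and those 18 became 5. The median change was -0.26, with pair medians of -0.15, -0.23 and -0.33. Of the 44, 33 were lower in all 3 pairs, against 18.9% of all genes. Csrp3, a Z-disc protein gene named after its values were seen, had the lowest value of the list, -0.67 (SE 0.16, adjusted p = 0.0726). It was 7.22, 7.04 and 6.77 log2 against 7.79, 7.53 and 7.71, with no overlap. Acta1, the skeletal actin gene, had a change of -0.14 (adjusted p = 0.868), and Myh3, the embryonic myosin gene, one of -0.26 (adjusted p = 0.702).

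Myh8 went the other way. Myh8, the perinatal myosin heavy chain gene, was 5.40, 4.22 and 5.2 log2 on the IFT88KD arrays and 4.17, 3.63 and 4.67 on the control arrays. It rose by 0.78 (SE 0.12, limma adjusted p = 0.0124) with overlap between the groups, and its pair differences were 1.23, 0.59 and 0.53. Myh1, another fast myosin gene, also named after its values were seen, had a change of 0.61 (SE 0.26, adjusted p = 0.357). Myosin heavy chain genes lie in a cluster of close relatives, and cross-hybridisation between their probes was not tested here. Without pairs the adjusted p of Myh8 was 0.395, and without pair 1, 2 and 3 it was 0.0590, 0.0498 and 0.0526.

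Genes of excitation and calcium handling link the membrane potential to contraction. Of 23 members 2 fell, 0 rose and 21 did not pass in limma (8.70% called, against 1.04% of all genes). Their median was -0.21, and 17 of the 23 were lower in all 3 pairs, against 18.9% of all genes. Trdn, which encodes triadin, an anchor of the calcium release channel complex, was 6.58, 6.30 and 6.21 log2 against 7.01, 7.10 and 6.80. It fell by 0.61 (SE 0.12, adjusted p = 0.0218) with no overlap, and its 5 other probe sets changed by -0.53 to -0.72. Cacna1s, the voltage sensor of the dihydropyridine receptor, was 6.06, 5.97 and 5.62 log2 against 6.55, 6.35 and 6.36. It fell by 0.54 (SE 0.11, adjusted p = 0.0328). The calcium release channel gene Ryr1 (-0.59, adjusted p = 0.0529) and the calcium pump gene Atp2a1 (-0.60, adjusted p = 0.0554) were just outside the threshold and were named after their values were seen. Chrng, the fetal subunit of the acetylcholine receptor, had a change of -0.44 (adjusted p = 0.0605). Without pairs, and without each pair in turn, 0 of the 23 passed in limma, with 1 below an unadjusted p of 0.05 without pairs and 7 to 9 without a pair.

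Of 21 myoblast fusion and adhesion genes 2 fell, 0 rose and 19 did not pass in limma (9.52% called, against 1.04% of all genes). Their median was -0.13. Of the 21, 9 were lower and 4 higher in all 3 pairs, against 18.9% and 21.2% of all genes. The median was -0.03 with no filter on low values, -0.08 with a gene's probe sets averaged, and -0.10 and -0.09 without pair 2 and 3. Dysf, which encodes dysferlin, a membrane repair protein, was 5.08, 4.49 and 4.47 log2 against 5.43, 5.03 and 5.25. It fell by 0.55 (SE 0.097, adjusted p = 0.0164), and only the first IFT88KD array overlapped the controls. Itgb1bp2, which encodes melusin, a muscle protein that binds integrin, was 8.68, 8.11 and 8.15 log2 against 8.98, 8.65 and 8.68. It fell by 0.45 (SE 0.083, adjusted p = 0.0177). Mymk, which encodes the fusion protein myomaker, changed by -0.16 (adjusted p = 0.666). Without pairs 0 of the 21 passed in limma (2 below an unadjusted p of 0.05), and without pair 1, 2 and 3 the counts were 1, 0 and 0.

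The list of myogenic regulators held no call. Of 18 measured members 0 passed in limma, 2 were lower and 0 higher below an unadjusted p of 0.05, and the median change was 0.01, with 9 members on each side of 0. Of these 18, 4 were lower and 1 was higher in all 3 pairs, against 18.9% and 21.2% of all genes. Myog, which encodes myogenin, was 10.73, 10.66 and 10.66 log2 on the IFT88KD arrays and 10.75, 10.69 and 10.71 on the control arrays (change -0.04, SE 0.20). Myod1, the MyoD gene, changed by -0.11 (SE 0.088) and Mef2c, a partner of these factors, by -0.03 (SE 0.20). The lowest values were those of Id2, an inhibitor of these factors (-0.25, adjusted p = 0.499), and Klf5, a Krüppel-like factor gene (-0.24, adjusted p = 0.288), both named after their values were seen. The highest were Six4, a homeobox gene, at 0.12 (adjusted p = 0.631) and Cdon, a cell surface co-receptor gene, at 0.11 (adjusted p = 0.822). Cdon was listed at 3.35 log2 on 4 of the 6 arrays, a repeated low value, so its change has little meaning.

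The 4 muscle lists together held 105 genes, with a median of -0.23. Of these, 92 had a change under 0, against 4022 of all 8597 genes. In all 3 pairs 74 were lower, against 18.9% of all genes. In limma 9 were lower (8.57%, against 0.523% of all genes) and 1 was higher. In control cells 89 of the 105 were higher in differentiating than in proliferating culture, against 24.5% of all genes. Of the 45 genes lower on the IFT88KD arrays in all, 36 were higher and 2 lower in control differentiating than in control proliferating cells. Of the 44 higher genes, 13 were higher and 16 lower in that comparison, against 24.5% and 30.3% of all genes. The contrasts share the 3 control differentiating arrays, so these counts are given side by side and are not independent.

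The promoters of the called muscle genes are shown because 9 of these 10 genes fell and MyoD family and MEF2 factors are known to act on muscle genes. Of the 10 called muscle genes, 8 had an entry in the RefSeq promoter table (build GRCm38.p6), 6 of them with 1 start. The 250 bases before the start were read on the gene's strand and searched on both strands. One E-box core, CAGCTG, is its own reverse complement. Another core was CACCTG, which reads from the opposite strand as the letters CAGGTG. The MEF2 consensus was the last motif, and no motif overlapped another. A match was found for 6 of the 8, and none for Cox7a1 and Dysf. Across all 32851 promoter entries of the same length, CAGCTG occurred in 13%, CACCTG or CAGGTG in 17.2% and the MEF2 consensus in 2.92%. These shares are per motif and per entry, while the 6 of 8 counts any motif in any entry of a gene. The share of entries with any of the motifs was not computed, so the 6 of 8 has no matching background. A match is a description of letters, not a binding site. Capitals mark the matches in the 5 genes below that had 1 entry and a match, in the order Pgam2, Cox8b, Pygm, Cacna1s and Myh8, 5' to 3' and ending at the base before the start.
Pgam2: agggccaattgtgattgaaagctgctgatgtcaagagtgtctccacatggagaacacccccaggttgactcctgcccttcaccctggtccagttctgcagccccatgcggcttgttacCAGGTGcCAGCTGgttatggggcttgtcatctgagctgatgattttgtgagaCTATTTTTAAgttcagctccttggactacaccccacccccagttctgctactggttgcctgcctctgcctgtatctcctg
Cox8b: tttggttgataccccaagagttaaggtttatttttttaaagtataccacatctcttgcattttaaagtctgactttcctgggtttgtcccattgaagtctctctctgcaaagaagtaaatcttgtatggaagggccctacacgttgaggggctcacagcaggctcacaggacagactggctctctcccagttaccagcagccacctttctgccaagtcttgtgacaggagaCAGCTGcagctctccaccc
Pygm: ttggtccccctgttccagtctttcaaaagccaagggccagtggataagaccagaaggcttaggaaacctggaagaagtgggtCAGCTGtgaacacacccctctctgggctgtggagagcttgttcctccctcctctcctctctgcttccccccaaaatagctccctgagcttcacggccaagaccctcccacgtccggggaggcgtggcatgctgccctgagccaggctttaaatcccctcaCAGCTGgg
Cacna1s: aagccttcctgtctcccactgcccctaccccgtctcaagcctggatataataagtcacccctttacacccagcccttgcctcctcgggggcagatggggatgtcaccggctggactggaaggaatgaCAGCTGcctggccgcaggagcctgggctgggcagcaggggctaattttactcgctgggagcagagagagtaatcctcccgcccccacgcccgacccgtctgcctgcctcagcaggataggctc
Myh8: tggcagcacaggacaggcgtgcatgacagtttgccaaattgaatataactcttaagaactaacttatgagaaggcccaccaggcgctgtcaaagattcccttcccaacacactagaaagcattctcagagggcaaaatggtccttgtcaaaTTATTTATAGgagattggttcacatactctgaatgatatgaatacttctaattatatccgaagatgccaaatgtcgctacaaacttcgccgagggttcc
The windows are chr11:5803797-5804046 (minus strand) for Pgam2, chr7:140900447-140900696 (minus) for Cox8b, chr19:6384158-6384407 (plus) for Pygm, chr1:136052561-136052810 (plus) for Cacna1s and chr11:67276874-67277123 (plus) for Myh8. Pgam2 had CAGGTG starting 132 bases, CAGCTG 125 bases and a MEF2 match 80 bases before its start. CAGCTG began 19 bases before the start in Cox8b, 168 and 8 bases in Pygm and 123 bases in Cacna1s. Myh8 held a MEF2 match at 99 bases and neither of the E-box cores searched. Cox7a1 and Dysf, which fell, also held neither core. Other E-box cores were not searched. A link between motifs and direction of change was not tested.

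The list of CDK inhibitor and arrest genes also held the cyclin gene Ccnd1. Of its 22 measured members 2 rose, 0 fell and 20 did not pass (limma; 9.09% called, against 1.04% of all genes). The median was 0.08, with 7 members below 0. The 2 calls were Cdkn1c and Ccnd1, of which only Cdkn1c is a CDK inhibitor gene. Cdkn1c, which encodes the CDK inhibitor p57, was 9.58, 9.52 and 9.73 log2 on the IFT88KD arrays and 8.51, 8.52 and 8.85 on the control arrays. The groups did not overlap. The rise was 0.98 (SE 0.16, limma adjusted p = 0.0126), with pair differences of 1.07, 1.0 and 0.88. Ccnd1, the cyclin D1 gene, was 6.29, 6.78 and 6.72 log2 against 5.93, 6.33 and 6.24 and rose by 0.43 (SE 0.088, adjusted p = 0.0330). Its 2 other probe sets changed by 0.53 and 0.46. Among those that did not pass were Cdkn1a, the p21 gene (-0.08), Cdkn1b, the p27 gene (0.07), and Gadd45a, a DNA damage response gene with the lowest value of the list (-0.36, adjusted p = 0.148). Without pairs, and without each pair in turn, 0 of the 22 passed in limma (1 below an unadjusted p of 0.05 without pairs, 3 to 6 without a pair).

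G2 and mitosis genes had a change above 0 in 69 of 69 members, against 4575 of all 8597 genes, with a median of 0.22. In limma 1 was higher and 68 did not pass (1.45% called, near the 1.04% of all genes), with 21 higher and 0 lower below an unadjusted p of 0.05. Those 21 became 5 without pairs and 5 without pair 2, where the median was 0.15. The pair medians were uneven, at 0.06, 0.38 and 0.22, and 42 of the 69 were higher in all 3 pairs, against 21.2% of all genes. Psrc1, which encodes a spindle protein and is also a p53 target, was 5.28, 5.27 and 5.56 log2 against 4.49, 4.48 and 4.53. It rose by 0.87 (SE 0.14, adjusted p = 0.0126), while its 2 other probe sets changed by 0.39 and 0.30. Neither of these passed in limma (adjusted p = 0.204 and 0.314 over probe sets), and the second lay under the filter percentile on all 6 arrays. The call held without pairs (adjusted p = 0.0126) but not without pair 1, 2 or 3 (adjusted p = 0.0543, 0.0652 and 0.160). Ckap2, a spindle microtubule gene chosen after its values were seen, had a change of 0.45 (adjusted p = 0.120), and Mki67, the Ki-67 proliferation antigen gene, one of 0.19 (adjusted p = 0.691). DNA replication genes had a change above 0 in 46 of 48 members with a median of 0.13, and 0 passed in limma (5 below an unadjusted p of 0.05, all higher). Their pair medians were -0.05, 0.25 and 0.15, so pair 1 lay on the other side of 0. Of the 48, 16 were higher in all 3 pairs, against 21.2% of all genes. Without pair 2 the median was 0.066 and 0 were below an unadjusted p of 0.05. In this list Pola1, a DNA polymerase subunit gene, stood at 0.32 (adjusted p = 0.22) and Pole2 at 0.32 (adjusted p = 0.183).

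**Figure D3:**
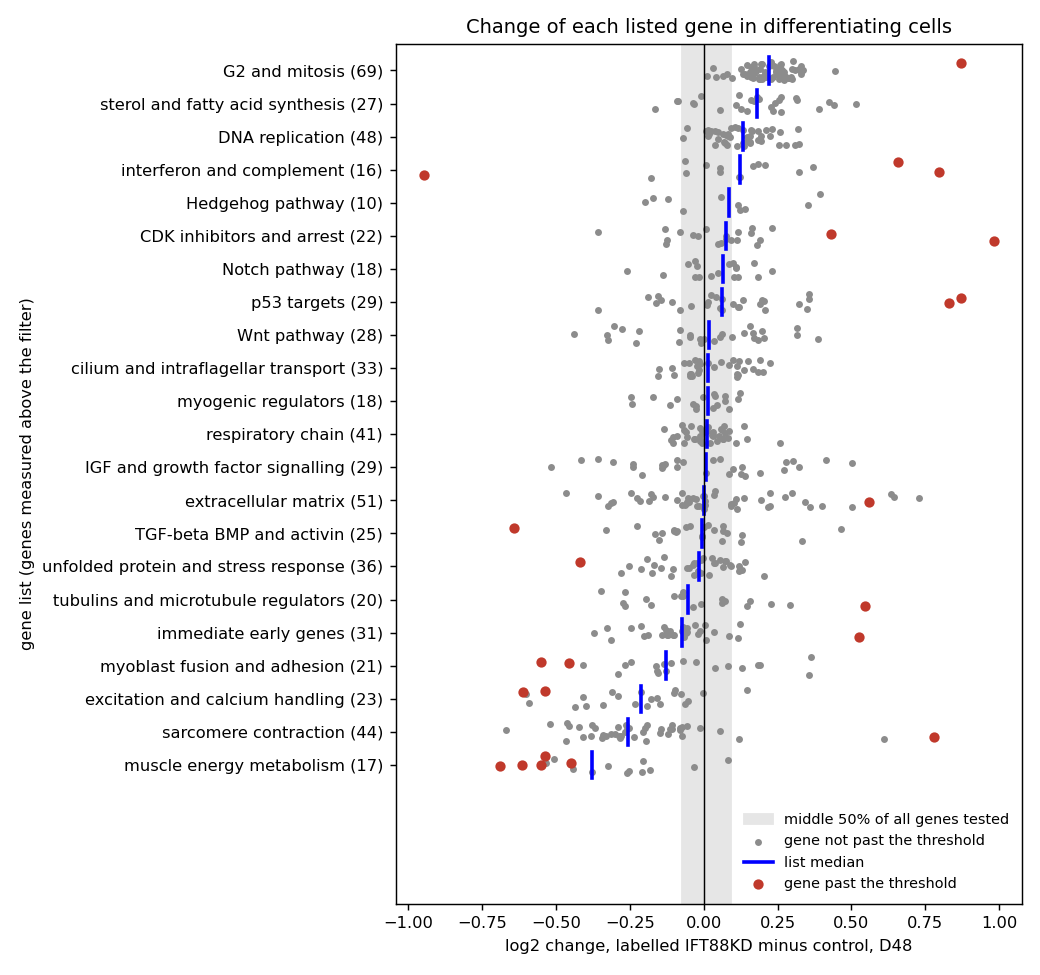
Log2 change of every measured member of 22 gene lists in differentiating cells, with the list median as a blue line and genes past the threshold in red. The medians of the 4 muscle lists lie below 0, all G2 and mitosis members lie above it, and the grey band spans the quartiles of all genes, -0.07 to 0.09.

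Ptx3 had the largest rise of the contrast. Ptx3, which encodes pentraxin 3, a soluble pattern recognition protein, was 2.96, 4.16 and 4.30 log2 on the IFT88KD arrays and 2.34, 3.16 and 2.31 on the control arrays. It rose by 1.20 (SE 0.18, limma adjusted p = 0.0124), but the arrays overlapped and the pair differences ran from 0.62 to 1.99. Of the control values 2 lay under the filter percentile, and without pairs the adjusted p was 0.652. Sulf2, a sulfatase gene that edits heparan sulfate, rose by 0.89 (SE 0.14), Prelp, a matrix proteoglycan gene, by 0.74 (SE 0.11), and Cd24a, a surface glycoprotein gene, by 0.73 (SE 0.11). Ccl9, a chemokine gene, rose by 0.85 (SE 0.14), from a control range of 1.96 to 3.34 log2 to 3.15 to 4.02. The other probe set of Prelp changed by 0.41 (adjusted p = 0.372 over probe sets), the 2 of Cd24a by 0.83 (0.0549) and 0.32 (0.642), and that of Ccl9 by 0.54 (0.315). That of Ccl9 lay above the filter percentile on only 1 of the 6 arrays. Sulf2, Prelp and Cd24a had no overlap between the groups, while Ccl9 did. Without pair 3 the adjusted p was 0.0526 for Ptx3 and 0.144 to 0.187 for the other 4, and without pairs it was 0.118 to 0.999 for those 4.

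Other rises fell into no list. Klhl13, an adaptor gene of a cullin ubiquitin ligase, was 5.16, 4.37 and 4.98 log2 against 3.79, 3.87 and 3.81. It rose by 1.01 (SE 0.17, limma adjusted p = 0.0126), and its 1 other probe set, under the filter percentile on all 6 arrays, changed by 0.49. Slc24a3, a sodium, potassium and calcium exchanger gene, was 3.88, 3.93 and 4.06 log2 against 3.03, 3.21 and 2.89 and rose by 0.91 (SE 0.13, adjusted p = 0.0122). Kyat3, a kynurenine aminotransferase gene, rose by 0.85 (SE 0.14), Nmi, an interferon-induced partner of STAT proteins, by 0.73 (SE 0.098) and Slc27a3, a fatty acid transport family gene, by 0.72 (SE 0.13). Without pairs Klhl13 and Slc24a3 passed (adjusted p = 0.0155 and 0.01) and the other 3 did not (0.148 to 0.29). Without pair 3 the adjusted p of these 5 genes was 0.144 to 0.249.

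Ephx1, Erap1 and Tap2 rose as well. Ephx1, a microsomal epoxide hydrolase gene on the p53 list, was 6.09, 6.34 and 6.20 log2 on the IFT88KD arrays and 5.39, 5.47 and 5.28 on the control arrays. It rose by 0.83 (SE 0.11, limma adjusted p = 0.0053), and the call held without pairs (adjusted p = 0.017). Ephx1 and Psrc1 were the 2 of 29 p53 targets past the threshold (6.90%, against 1.04% of all genes), and the list's median was 0.06. Erap1, an aminopeptidase gene that trims peptides for MHC class I, was 3.79, 3.89 and 4.0 log2 against 2.98, 3.42 and 2.89 and rose by 0.80 (SE 0.14, adjusted p = 0.0147). Tap2, a subunit of the peptide transporter, was 3.11, 3.17 and 3.24 log2 against 2.62, 2.71 and 2.21 and rose by 0.66 (SE 0.14, adjusted p = 0.0458). Serping1, the C1 inhibitor gene of the same interferon and complement list, fell by 0.95 (SE 0.18, adjusted p = 0.0258). It was 2.12, 1.97 and 1.94 log2 against 2.54, 3.09 and 3.24, under the filter percentile on all 3 IFT88KD arrays, so its size is uncertain. The other 13 of 16 members did not pass (18.75% called, against 1.04% of all genes), and the list's median was 0.12. Without pair 3 the adjusted p was 0.0986 for Ephx1, 0.215 for Erap1, 0.465 for Tap2 and 0.314 for Serping1.

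**Figure D4:**
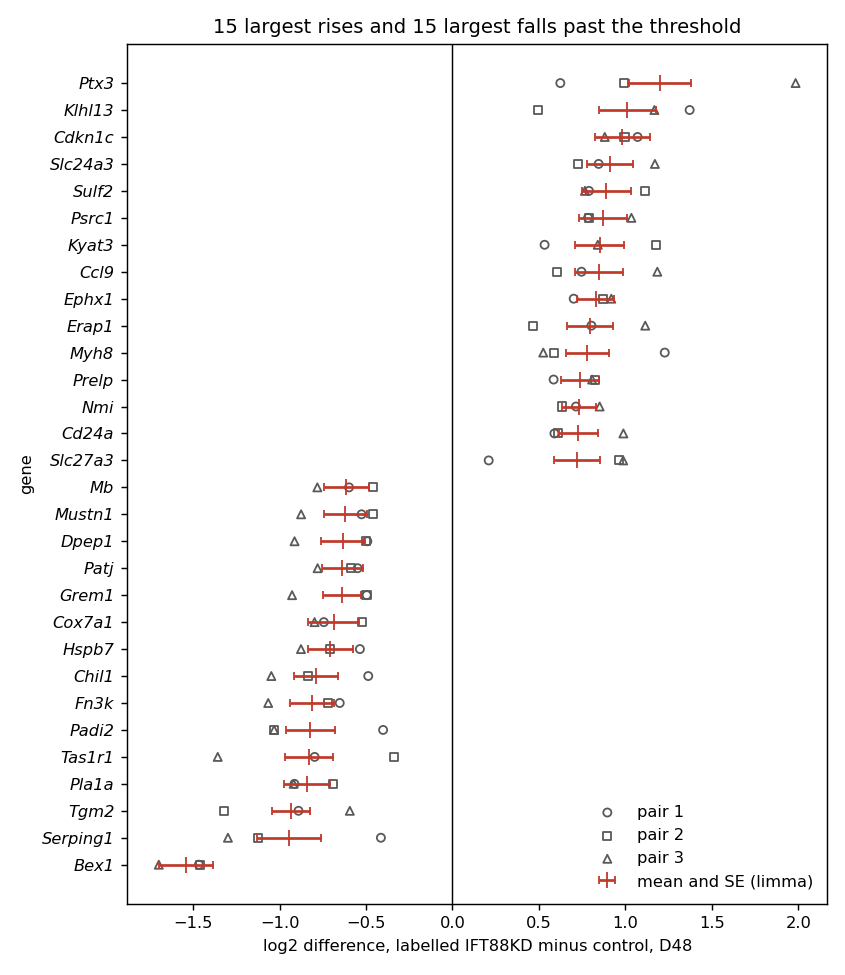
Log2 difference of the 15 largest rises and 15 largest falls past the threshold, with 1 symbol per pair and the limma mean with its SE in red. Every symbol lies on the same side of 0 as its mean, and Bex1 at -1.54 and Ptx3 at 1.20 are the extremes.

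Fn3k was among the other genes that fell. It encodes a kinase that removes glycation from proteins and was 4.21, 4.40 and 3.93 log2 against 4.86, 5.12 and 5.0. It fell by 0.81 (SE 0.13, limma adjusted p = 0.0126). Pla1a, a phosphatidylserine phospholipase gene, fell by 0.84 (SE 0.13), Tas1r1, a taste receptor subunit gene, by 0.83 (SE 0.14), Padi2, a peptidylarginine deiminase gene, by 0.82 (SE 0.14) and Chil1, a chitinase-like protein gene, by 0.79 (SE 0.13). Hspb7, a small heat shock protein gene of heart and muscle, fell by 0.71 (SE 0.13), and its 2 other probe sets changed by -0.24 and 0.11, the second of them under the filter percentile on all 6 arrays. Patj, a cell polarity scaffold gene, fell by 0.64 (SE 0.12), Dpep1, a membrane dipeptidase gene, by 0.63 (SE 0.13) and Mustn1, a small nuclear protein gene of the musculoskeletal system, by 0.62 (SE 0.12). Grem1, an antagonist of bone morphogenetic proteins, was 5.53, 6.13 and 5.85 log2 against 6.02, 6.63 and 6.78 and fell by 0.64 (SE 0.11, adjusted p = 0.0157). Grem1 was the 1 call among 25 genes of TGF-beta, BMP and activin signalling, whose median was -0.0046. Without pairs Fn3k and Tas1r1 passed (adjusted p = 0.028 and 0.0491) and the other 8 did not (0.0726 to 0.999). Without pair 3 the adjusted p of these 10 genes was 0.157 to 0.378.

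Cilium and Hedgehog genes showed no call. Of 33 cilium and intraflagellar transport genes other than Ift88, 0 passed in limma and 0 had a p below 0.05 before adjustment, with a median of 0.02 and changes between -0.16 and 0.23. Ttc8, a BBSome subunit gene, stood at 0.23 (adjusted p = 0.535) and Inpp5e, a ciliary phosphatase gene, at 0.20 (adjusted p = 0.488). Of 10 measured Hedgehog pathway genes 0 passed in limma, with 2 higher and 1 lower below an unadjusted p of 0.05. Gli1, a transcriptional target and effector of the pathway, was 1.55, 1.66 and 1.85 log2 against 1.44, 1.18 and 1.26, under the filter percentile on all 6 arrays (change 0.39, adjusted p = 0.238). Gli2, another effector, was 4.13, 4.43 and 4.33 log2 against 4.04, 4.08 and 3.71 (change 0.35, adjusted p = 0.225). The receptor gene Ptch1, also a target, changed by 0.14 (adjusted p = 0.748) and Smo, the signal transducer, by 0.12 (adjusted p = 0.684).

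Sterol and fatty acid synthesis genes had a median of 0.18, with 0 of 27 past the threshold in limma and 9 higher and 0 lower below an unadjusted p of 0.05. Mvk, the mevalonate kinase gene, was 4.43, 4.55 and 4.55 log2 against 3.94, 3.92 and 4.13 (change 0.52, adjusted p = 0.0541), and Elovl6, a fatty acid elongase gene, changed by 0.44 (adjusted p = 0.0600). Of 51 extracellular matrix genes 1 rose, with a median of 0.0014. This was Col4a1, a basement membrane collagen gene, which was 8.67, 9.10 and 9.48 log2 against 8.12, 8.54 and 8.91 and rose by 0.56 (SE 0.11, limma adjusted p = 0.0258), by nearly the same amount in each pair (0.55, 0.55 and 0.57), while its other probe set changed by 0.40. Its neighbour in the collagen IV heterotrimer, Col4a2, changed by 0.34 (adjusted p = 0.161). Stmn2, a stathmin family gene whose protein destabilises microtubules, was 7.91, 8.11 and 7.99 log2 against 7.38, 7.53 and 7.45. It rose by 0.55 (SE 0.090, adjusted p = 0.0126), the 1 call among 20 tubulin and microtubule genes, and it also passed without pairs (adjusted p = 0.0491). Without pair 3 the adjusted p was 0.23 for Col4a1 and 0.157 for Stmn2.

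Klf2, a Krüppel-like factor gene, was 3.941, 4.327 and 3.935 log2 against 3.346, 3.64 and 3.638. It rose by 0.53 (SE 0.11, limma adjusted p = 0.0425), the 1 call among 31 immediate early genes, whose median was -0.07. Its first control value equals the repeated low value of Cdon to the digits given, so the size of its rise is less certain. Mydgf, a secreted factor gene of the unfolded protein and stress list, was 6.26, 6.46 and 6.11 log2 against 6.67, 6.78 and 6.63 and fell by 0.42 (SE 0.069, adjusted p = 0.0126), the 1 call of 36, while its 2 other probe sets changed by -0.17 and -0.25. Without pair 3 the adjusted p was 0.157 for Klf2 and 0.212 for Mydgf, and without pairs it was 0.999 and 0.278. No member passed in limma among 29 IGF and growth factor genes (Kitl 0.50, Igf1 0.41; 4 higher and 6 lower below an unadjusted p of 0.05), 18 Notch genes (Dll1 0.23, Notch3 0.18; 0 and 1) or 28 Wnt genes (Fzd6 0.39, Ccn4 0.32; 3 and 6). The lowest values of these lists, added after they were seen, were -0.52 for Hbegf, a ligand of the EGF receptor (adjusted p = 0.0900), -0.26 for Hes6 (adjusted p = 0.297) and -0.44 for Wnt4 (adjusted p = 0.232). Among the respiratory chain genes Ppargc1a stood at 0.26 and Sdhd at 0.15. Of the marker lists, the largest changes in the direction of the median were those of Cd53 (-0.31) and Fcer1g (-0.06) for macrophages, Col14a1 (-0.21) and Pi16 (-0.21) for fibroblasts, Lpl (0.38) and Pparg (0.16) for adipocytes and Sox9 (-0.18) and Sp7 (-0.06) for bone and cartilage. None of these 8 passed. Col14a1, Fcer1g, Pparg and Sp7 lay under the filter percentile on all 6 arrays, and Cd53 on all 3 IFT88KD arrays and 1 control array. The largest change among the fibroblast markers was a higher value, 0.55 for Cd34 (adjusted p = 0.304).

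The same genes were then followed in the other 3 culture states. The arrays of those states are separate, but the tests are not, because each gene's error estimate was pooled over all culture states. Genes called in differentiating cells tend to have a small pooled error. Such genes can pass more often in the other states too, in either direction. The counts past the threshold below are therefore no independent support. The signs do not use that error estimate. Of the 89 genes, 68 (76.4%) had the same sign in proliferating cells, 58 (65.2%) in suspension and 52 (58.4%) after replating, against 52.2%, 54.5% and 56.5% of all genes. Past the threshold in the same direction were 19 in proliferating cells (21.4% of the 89 and 11.5% of the 166 genes called there), 29 in quiescent (32.6%, and 2.47% of 1173) and 25 in replated cells (28.1%, and 2.62% of 955). Past it in the opposite direction were 1, 11 and 9. Across all 8597 genes the changes in differentiating cells correlated at 0.18 with those of each other state, given as a description across genes, which are not independent replicates. Of all genes 1.93% were called in proliferating cells, 13.6% in suspension and 11.1% after replating.

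Cxcl12 and Trim37 rose and Itprid2, Mydgf, Samd8, Sdhaf2 and Stom fell in all 4 states. In the order differentiating, proliferating, quiescent and replated, Mydgf fell by 0.42, 0.90, 1.21 and 1.22. In that order Ephx1 changed by 0.83, 1.21, -0.15 and -0.07, and Psrc1 by 0.87, 1.0, 0.33 and 1.21.

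**Figure D5:**
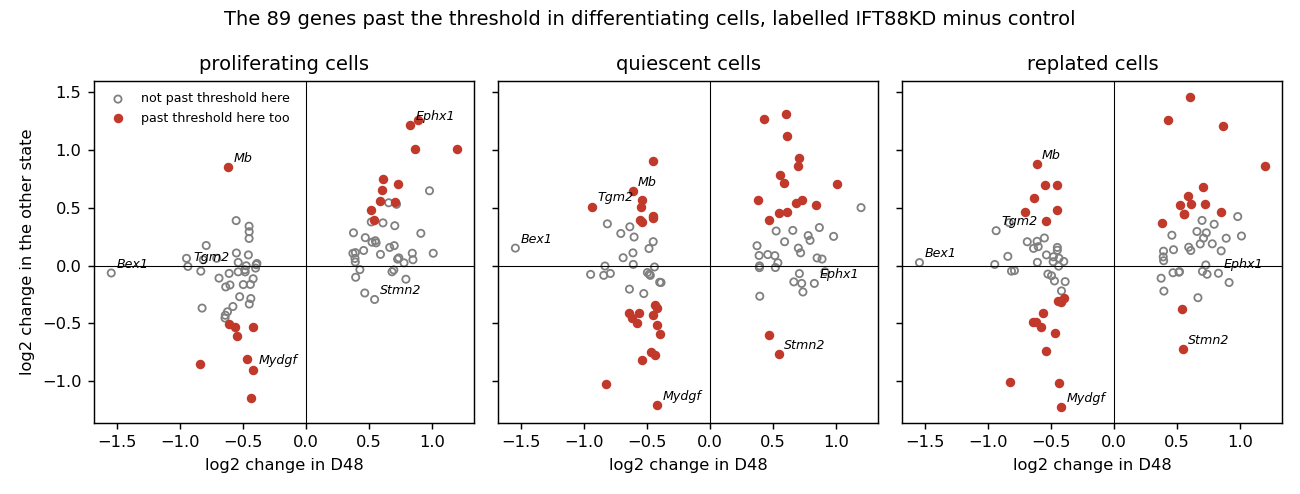
Log2 change of the 89 genes in differentiating cells (horizontal axis) against their change in proliferating, quiescent and replated cells (vertical axis), with genes past the threshold in that state in red. Mydgf lies low in all 3 panels, while Mb and Stmn2 lie on opposite sides of 0 from their change in differentiating cells.

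Whether an effect differed between states was tested as a difference of effects. In limma 44 genes passed against proliferating cells (0.512%; 13 higher, 0.151%, and 31 lower, 0.361%), 452 against quiescent (5.26%; 191 higher, 2.22%, and 261 lower, 3.04%) and 254 against replated cells (2.95%; 86 higher, 1%, and 168 lower, 1.95%). Of the 105 muscle genes, 15 passed against proliferating cells, all with a lower effect in differentiating cells, 49 against quiescent cells with 47 lower, and 42 against replated cells, all lower. Their median change was -0.23 in differentiating cells, against 0.09 in proliferating cells, 0.33 in suspension and 0.25 after replating. Mb changed by -0.61 in differentiating cells and by 0.85, 0.64 and 0.88 in proliferating, quiescent and replated cells, each past the threshold. The control proliferating arrays spread widely in muscle markers, from 4.14 to 6.87 log2, and the part of that spread in the proliferating values was not tested. Without the pair terms the counts were 4, 97 and 32.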

How the data were processed

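The deposited table holds log2 expression values of 22690 probe sets on 24 arrays. GCOS, Affymetrix Expression Console and affy are named in the submitters' processing notes, while their versions, and how the values were normalised, are not given in the sources used here. Those deposited log2 values were used as they are. Between 9.24% and 9.67% of the values of a differentiating array were shared with another probe set of that array, many of them low.

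Of the probe sets, 20380 were assigned to 1 gene, 691 to several, 1555 to none and 64 were controls. The brightest probe set stood for a gene, and a gene was kept if its signal exceeded the array's 40th percentile 3 times or more, which left 8597 of 12393 genes. limma 3.58.1 in R 4.3.3 fitted all 24 arrays with 12 pair terms, 1 per state and replicate number, and 1 siRNA effect per state (8 residual degrees of freedom), with Benjamini-Hochberg adjustment over 8597 genes. Pairs come from the replicate numbers of the titles. Deviations of same-numbered differentiating arrays correlated at 0.450 to 0.671 across genes, and those of other numbers at -0.0530 at most. The comparison of control states had no block. The fit was tested on simulated data. Python 3.11.15 drew the plots.

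The comparison, lists and named genes were chosen with earlier results of these data known. Named genes were Ift88, the 15 largest rises and falls past the threshold with 3 pairs of 1 sign, up to 5 called members of a list, the 2 leading members of a list without calls, and the 5 largest differences of effect between states.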

Additional observations from a re-analysis of the deposited data

Results flagged for a closer look

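The effects of the arrays labelled IFT88KD differed between culture states for genes past the threshold in differentiating cells. The test was limma's difference of effects (differentiating minus the other state), with adjusted p over all 8597 genes. The 5 largest per state are given. Their selection used the same differentiating values that enter the difference, so the sizes tend to run large. They are no separate support for the calls in differentiating cells. Against proliferating cells the difference was -1.48 for Bex1 (SE 0.22, adjusted p = 0.0101), -1.46 for Mb (adjusted p = 0.0048), -0.96 for Chil1 (adjusted p = 0.0394), -0.94 for Dysf (adjusted p = 0.0098) and -0.93 for Tgm2 (adjusted p = 0.0241). Against quiescent cells it was -1.69 for Bex1 (adjusted p = 8.22e-04), -1.44 for Tgm2 (adjusted p = 1.76e-04), -1.35 for Itgb1bp2 (adjusted p = 7.89e-05), 1.31 for Stmn2 (adjusted p = 1.12e-04) and -1.25 for Mb (adjusted p = 0.0017). Against replated cells it was -1.57 for Bex1 (adjusted p = 0.0025), -1.49 for Mb (adjusted p = 0.0012), 1.27 for Stmn2 (adjusted p = 2.34e-04), -1.24 for Cox8b (adjusted p = 1.53e-04) and -1.24 for Tgm2 (adjusted p = 0.0012).

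Bex1 had changes of -0.06, 0.15 and 0.03 in proliferating, quiescent and replated cells, none past the threshold. Stmn2 rose in differentiating cells and fell in quiescent cells by 0.76 and in replated cells by 0.72. Itgb1bp2 fell in differentiating cells and rose by 0.90 in quiescent and by 0.70 in replated cells. Cox8b rose by 0.50 and by 0.69 in the same states.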

How the results depend on the processing

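The 89 calls were 12 with no replicate block, which leaves out the pairing (405 below an unadjusted p of 0.05), and 27 with the 6 differentiating arrays alone. Leaving out a pair gave 3 to 20. Quantile normalisation gave 101, median centring 85, no filter 77, the 60th percentile 73, mean probe sets 98, a random block 99 and a variance trend 113. The difference from proliferating cells (44 genes) was 4 with no replicate block, 26 with a random block, 28 with no filter and 7 to 19 without a pair. That from quiescent cells (452) was 97 with no replicate block and 210 to 293 without a pair. That from replated cells (254) was 32 and 83 to 141. The comparison of control states (4708) gave 4672 to 5107.

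Without pair 2 the sign turned for Ift88 (0.087), Cdon (-0.099) and Pparg (-0.044). Over the fits without a pair, Ift88 ran from -0.067 to 0.087, Cdon from -0.099 to 0.27 and Pparg from -0.044 to 0.27. Ift88 did not pass the 60th percentile filter, which gives no value. Of the 43 named genes past the threshold, 10 passed with no replicate block, 16, 10 and 2 without pair 1, 2 and 3, 32 with a random block, 15 with the 6 arrays alone, 30 of the 30 kept by the 60th percentile, and 40 to 43 under the other scalings, no filter, mean probe sets and the variance trend. None of the 43 changed sign in any of the 12 alternatives. Of the 22 list medians, at most 4 moved by more than the SD of their pair medians under 1 alternative (no filter), and 3 did without each pair. Fits without a pair hold fewer arrays, and no other cause of the lost calls was tested.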
